A study of Homo sapiens with 6 samples.

Results

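The genes described here are 44 genes that act in mitosis and on the spindle: the kinases and cyclins that start cell division, the spindle checkpoint, kinesin motors, kinetochore proteins, spindle-binding proteins, and the proteins of the midzone and of cytokinesis. They were taken by symbol from a fixed list, and every probe set annotated to exactly 1 of them was used. All 44 were measured, by 89 of the 54613 probe sets analysed, and they made up 44 of 19775 genes that could be read alone.

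The arrays compared 2 derivatives of SKOV3.ip1, a human ovarian cancer cell line that descends from SKOV3. Cells of the S116D line had been stably transfected with a vector for phosphomimetic PEA-15, in which aspartic acid replaces serine. Cells of the S116A line carried a nonphosphorylatable PEA-15 with alanine in place of Ser116. PEA-15 is a small adaptor protein that binds ERK and FADD. For S116D the sample characteristics name Ser104 beside Ser116, the titles name Ser116 alone, and the treatment text names Ser16, so the number of substitutions is not settled. Each line was represented by 3 Affymetrix HG-U133 Plus arrays of total RNA from cells grown in serum-containing DMEM/F12 medium with antibiotics. No untransfected or empty-vector array was analysed here, and the labels do not say whether a line is 1 clone or whether its arrays came from separate cultures, so p-values measure only the spread between these arrays. All differences are S116D minus S116A in log2 signal, and a gene was called at an adjusted p under 0.05 by limma, a linear model fitted across all genes with Benjamini-Hochberg adjustment. A gene was read by its brightest probe set, the one with the highest mean over the 6 arrays.

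At the entry into mitosis, cyclin B binds CDK1, CDC25 phosphatases activate the complex, and transcription factors such as FOXM1 drive the genes needed. The spindle checkpoint then holds CDC20, the activator of the anaphase-promoting complex, until every kinetochore is attached. Most of these genes are transcribed late in the cell cycle, so in a mixed culture their RNA levels follow the share of cycling cells as well as the amount per cell.

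The array medians lay between 7.862 and 7.893, and arrays correlated at r between 0.9951 and 0.9979 within a line and between 0.9866 and 0.9902 across lines. The carcinoma and SKOV3 markers PAX8, ERBB2, KRT8, KRT18 and CD24 averaged at least 12.24 in either line, whereas the ovarian surface markers MSLN and MUC16 averaged at most 7.67, below the array medians. Of the 9 markers of this kind, EPCAM, KRT8, KRT18 and KRT19 were called lower in S116D. Of 5 measured leukocyte markers none was called by limma or had an unadjusted p under 0.05, and their levels averaged 5.83 to 9.57 in S116D and 5.88 to 9.52 in S116A. Of 7 fibroblast markers none was called, with LUM (-0.45) at an unadjusted p under 0.05, and of 5 endothelial markers only the dim KDR (-0.43) was called. Fibroblast markers averaged 4.93 to 10.07 in S116D and 5.38 to 10.17 in S116A. Endothelial markers averaged 5.73 to 10.19 in S116D and 5.94 to 10.13 in S116A, so some of both kinds lay above the array medians. The proliferation markers were bright, with CCNB1 at 13.56 ± 0.05 in S116D and 13.50 ± 0.06 in S116A (SD, n = 3 each). Each of the 44 brightest probe sets lay above the median signal of 7.888.

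Of the 44 genes, 5 were higher in S116D and none lower, and 39 did not pass. KIF15, KIF20A, HMMR, CDC25C and PTTG1 were the 5. Over all 19775 genes 12.2% were called, 6.79% higher and 5.39% lower. The 11.4% called among the mitotic genes lay close to that share over genes of any signal. Among 13419 genes with a brightest probe set above the median signal, as all 44 had, 18.3% were called (9.97% higher, 8.31% lower). The same 5 members were called in that fit. In bulk RNA a different share of dividing cells and a different amount of RNA per dividing cell cannot be told apart. With an unadjusted p under 0.05 there were 11 higher and 5 lower members, 36.4% of the 44. By the same measure 2522 of all 19775 genes were higher and 2218 lower, 24% in all. The median difference over the members was 0.05, against 0.01 over all genes, and the range ran from -0.61 for FOXM1 to 0.81 for KIF15. Arrays of the lines did not overlap for 11 members with S116D above and 3 with S116D below, where the shares over all genes were 15.3% and 12.6% (27.8% in all). For 33 members the 95% interval of the difference lay within 0.5 on either side of 0, and for 43 within 1, the exception being FOXM1.

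**Figure D1:**
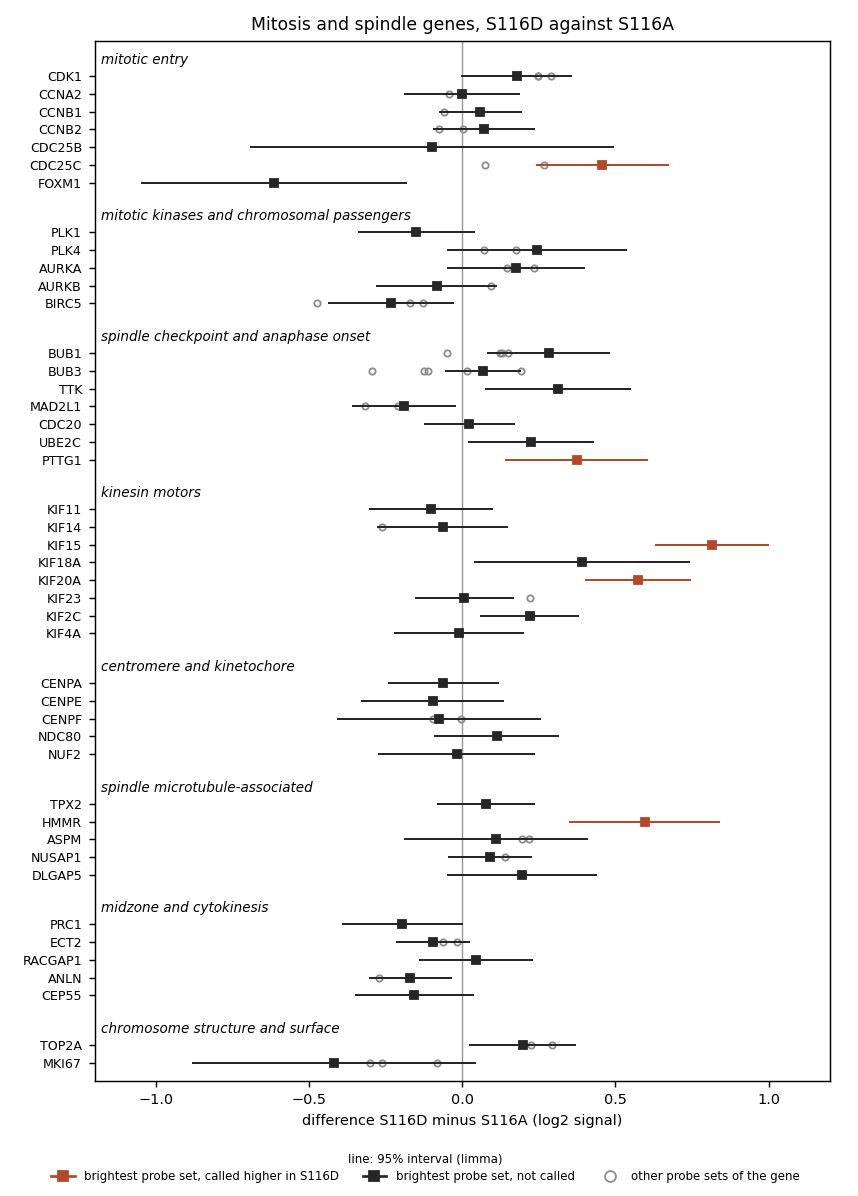
Difference between the lines (S116D minus S116A, log2 signal, horizontal axis) for the 44 genes, grouped by role. Squares are the brightest probe set with its 95% interval from limma, open circles the other probe sets of the gene, and red marks the 5 genes called higher in S116D; most intervals cross 0.

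KIF15, a kinesin that slides spindle microtubules and can take over from KIF11, had the largest difference of the 44. It read 10.77, 10.87 and 10.87 in S116D, against 10.06, 9.95 and 10.06 in S116A. All S116D arrays lay above all S116A arrays, by far more than the spread within a line. The difference was 0.81 ± 0.08 (SE), 1.76-fold, with a limma adjusted p of 4.9e-04. KIF20A, a kinesin of the central spindle needed for cytokinesis, read 12.02, 12.15 and 12.15 in S116D and 11.57, 11.54 and 11.48 in S116A. Again the lines did not overlap, and the difference of 0.57 ± 0.07 (SE) was 1.49-fold (limma adjusted p = 0.0019). Each of these kinesin genes was read by a single probe set.

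HMMR encodes a hyaluronan-binding protein that also sits on spindle microtubules and helps to assemble the spindle. Its signal was 12.60, 12.94 and 12.95 in S116D, against 12.13, 12.26 and 12.31 in S116A. S116D replicate 1 was the lowest of its line, but it stayed above every S116A array. The difference was 0.60 ± 0.11 (SE), 1.51-fold, at a limma adjusted p of 0.0082. The second HMMR probe set differed by 0.60 as well (limma adjusted p = 0.0090, adjusted over the 54613 probe sets).

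CDC25C, the phosphatase that removes inhibitory phosphates from CDK1, read 10.46, 10.70 and 10.70 in S116D, against 10.20, 10.10 and 10.19 in S116A. The difference was 0.46 ± 0.09 (SE), 1.37-fold (limma adjusted p = 0.015). Its 3 probe sets were not alike: a dim one differed by 0.27 and was called over all probe sets (limma adjusted p = 0.041), though not when any single array other than S116A replicate 3 was left out (0.059 to 0.147), while the third differed by 0.08 with a 95% interval from -0.09 to 0.24. PTTG1, which encodes securin, the inhibitor of separase, read 13.09, 13.34 and 13.37 in S116D, against 12.78, 12.84 and 13.05 in S116A. Here the lowest S116D array lay just above the highest S116A array. The difference of 0.37 ± 0.10 (SE), 1.30-fold, passed narrowly over genes (limma adjusted p = 0.046), but the same probe set was not called over the 54613 probe sets (limma adjusted p = 0.061). The single PTTG1 probe set is of the type that can bind other transcripts, and PTTG1 has near-identical relatives, so the reading may not be of PTTG1 alone. CDC25C and PTTG1 lost their call when S116A replicate 1, S116A replicate 2, S116D replicate 2 or S116D replicate 3 was left out, at limma adjusted p of 0.053 to 0.073 for CDC25C and 0.148 to 0.165 for PTTG1. KIF15, KIF20A and HMMR were called without any of the 6 arrays.

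**Figure D2:**
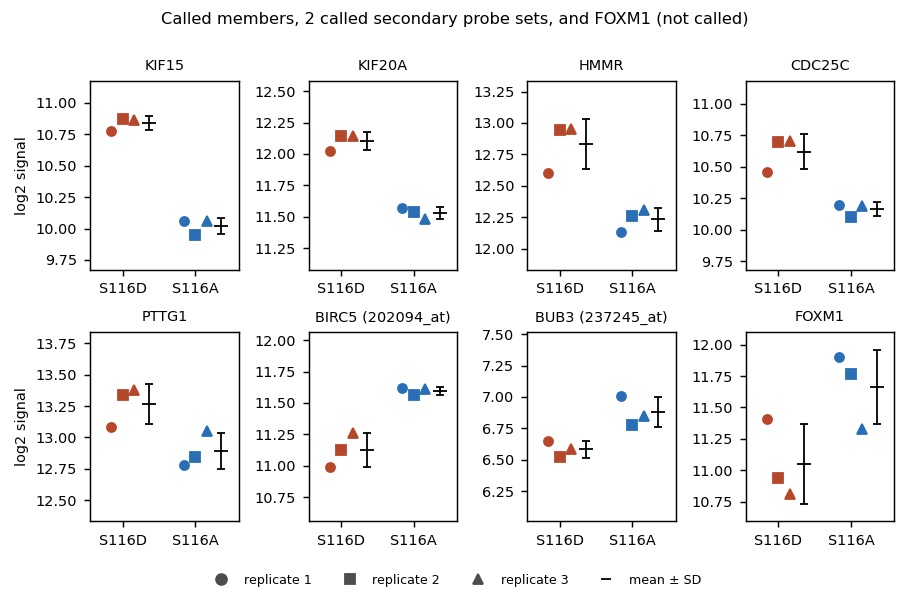
Log2 signal on each array for the 5 called genes, for the secondary probe sets of BIRC5 and BUB3 that were called lower, and for FOXM1, which was not called. S116D stands left of S116A, symbols mark the replicate number, bars give the mean ± SD of 3 arrays, and every panel spans 1.5 log2 units; the lines overlap only in the FOXM1 panel.

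Of the 5 called genes, KIF15 lies on chromosome 3, and KIF20A, CDC25C, PTTG1 and HMMR lie on chromosome 5, in gene order from RefSeq (GRCh38.p14). The list held 5 genes of that chromosome, and the fifth, CCNB1, was not called. Of 888 measured genes of chromosome 5, 143 (16.1%) were called higher in S116D and 27 (3.04%) lower, against 6.37% higher and 5.51% lower among 18798 genes of other chromosomes. The excess lay beyond CCNB1 in gene order: up to and including CCNB1, 13 of 252 genes were higher and 13 lower, while after it 126 of 632 genes other than the members were higher and 14 lower. This division at CCNB1 was chosen after the values were seen. The median difference was 0.09 in the second stretch and -0.0035 in the first. Of the 39 members on other chromosomes, KIF15 alone was called, 2.56% of them, beside 11.9% called in either direction among all genes of other chromosomes.

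**Figure D3:**
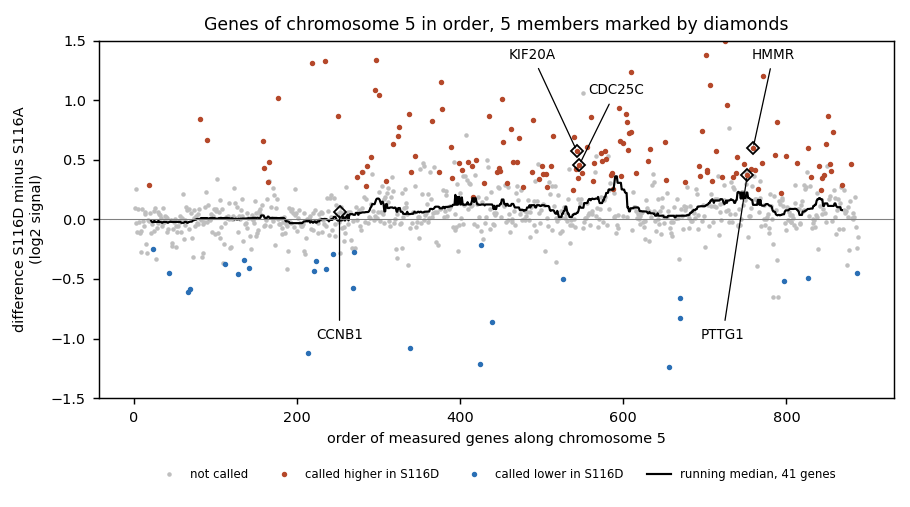
Difference between the lines (S116D minus S116A, log2 signal) for 888 measured genes of chromosome 5 in their order along it, with 9 genes beyond 1.5 on either side not drawn. Red and blue points were called higher and lower in S116D, the line is the running median over 41 genes, and diamonds mark the 5 mitotic genes; the line stays near 0 up to CCNB1 and above 0 over most of the rest.

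KIF20A and CDC25C are near neighbours, with CDC23 and GFRA3 between them among measured genes. CDC23, a subunit of the anaphase-promoting complex, was also higher in S116D, by 0.35 (limma adjusted p = 0.040), and GFRA3 differed by 0.17 (limma adjusted p = 0.29). PTTG1 and HMMR are likewise within 10 measured genes of each other. Of the 20 nearest measured genes, 10 on each side, 7 were higher around CDC25C, 6 around KIF20A, 4 around PTTG1 and 4 around HMMR, and none was lower. These windows overlap, and each holds 1 other called member. Around KIF15, on chromosome 3 where 8.49% of genes were higher and 8.67% lower, 7 of 20 neighbours were called higher and none lower. The lowest count around a called member was 4, and at PTTG1 and HMMR it includes the other of the 2. Among the 39 members that were not called, CDK1 alone reached that count (5), and the median was 0. KIF11, KIF14, CENPA and CENPE, not called, had 3 each. The bound of 4 was taken from the called members, so the contrast at it is no test. Whether the calls of the 5 genes are related to those of their neighbours was not tested.

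The promoters of the 5 called genes are shown because these genes were higher together, and that of CCNB1 for contrast, as the uncalled member of chromosome 5. Each stretch runs from 100 bases before to 50 bases after the gene start in RefSeq, 5′ to 3′ on the gene's strand, build GRCh38.p14. Capitals mark CCAAT, the box bound by NF-Y, and TTTGAA and TTTAAA, forms of the CHR element through which late cell-cycle genes are repressed in resting cells, each on either strand.
KIF15, chr3:44761694-44761843, plus strand: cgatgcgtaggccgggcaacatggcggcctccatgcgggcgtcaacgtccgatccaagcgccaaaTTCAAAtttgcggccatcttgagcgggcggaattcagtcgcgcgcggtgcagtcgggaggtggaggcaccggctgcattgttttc
KIF20A, chr5:138179012-138179161, plus strand: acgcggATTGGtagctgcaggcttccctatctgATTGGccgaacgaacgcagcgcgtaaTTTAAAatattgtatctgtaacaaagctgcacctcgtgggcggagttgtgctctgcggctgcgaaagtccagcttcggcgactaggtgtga
HMMR, chr5:163460532-163460681, plus strand: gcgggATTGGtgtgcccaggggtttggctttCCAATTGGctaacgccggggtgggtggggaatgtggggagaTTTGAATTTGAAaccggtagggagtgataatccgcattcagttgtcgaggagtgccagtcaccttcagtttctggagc
CDC25C, chr5:138338306-138338455, minus strand: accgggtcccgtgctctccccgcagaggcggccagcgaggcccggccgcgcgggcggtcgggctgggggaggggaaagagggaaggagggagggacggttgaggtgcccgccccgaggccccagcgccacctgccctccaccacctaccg
PTTG1, chr5:160421755-160421904, plus strand: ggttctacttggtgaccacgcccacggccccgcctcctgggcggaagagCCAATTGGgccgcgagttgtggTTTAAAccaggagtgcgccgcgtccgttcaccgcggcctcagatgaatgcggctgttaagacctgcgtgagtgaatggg
CCNB1, chr5:69167050-69167199, plus strand: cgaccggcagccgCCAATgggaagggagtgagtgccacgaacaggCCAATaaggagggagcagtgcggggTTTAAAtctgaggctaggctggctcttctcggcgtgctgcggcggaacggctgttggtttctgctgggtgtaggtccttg

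CCNB1, KIF20A and PTTG1 each showed CCAAT boxes followed by TTTAAA, though the strand and spacing of the boxes differed. HMMR had CCAAT boxes followed by 2 adjoining copies of TTTGAA. In HMMR and PTTG1 the run CCAATTGG holds the box on both strands. KIF15 held TTTGAA on the minus strand and no CCAAT in its 300-base window, and CDC25C held none of the 3 motifs in it. CCNB1, which was not called, thus had the arrangement of 2 called genes, and 2 others showed no CCAAT box within the 300-base window. Sequence outside these windows, or around other starts of the same genes, was not searched, so absence there was not tested. The table of promoters (250 bases before to 50 after the start) held 36 of the 44 genes and 27305 promoters in all. CCAAT occurred in 75% of the 36 and in 35.7% of all promoters, TTTGAA in 72.2% and 15.4%, and TTTAAA in 38.9% and 12.3%. CCAAT and TTTGAA stood together in 58.3% of the 36 and in 6.08% of all. FOXM1, AURKA, BIRC5, BUB3, TTK, UBE2C, TPX2 and RACGAP1 were not matched.

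Among the genes of mitotic entry, CDC25C was the only call of 7 (14.3%, beside 12.2% of all genes). CDK1, the kinase at the centre of entry, read 13.19, 13.17 and 13.36 in S116D, against 13.13, 12.94 and 13.12 in S116A. The lines did not overlap, but the gap was small beside the spread within a line, and the difference of 0.18 did not pass (limma adjusted p = 0.21). All 4 CDK1 probe sets differed in the same direction, by 0.18 to 0.29, and none was called. The cyclin genes differed least. CCNA2, whose cyclin acts from S phase to early mitosis, averaged 11.93 ± 0.06 in S116D and 11.93 ± 0.10 in S116A (SD, n = 3 each), and the 95% interval of its difference (-0.002) ran from -0.19 to 0.18. CCNB1 differed by 0.06 (95% interval -0.07 to 0.19) and CCNB2, the other B-type cyclin, by 0.07 (-0.09 to 0.23). CDC25B, a phosphatase that starts CDK1 activation at the centrosome, differed by -0.10 with a wide interval (-0.69 to 0.49).

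FOXM1, the transcription factor of late cell-cycle genes, had the largest negative difference of the 44. It read 11.41, 10.94 and 10.81 in S116D, against 11.90, 11.77 and 11.33 in S116A. S116D replicate 1 lay just above S116A replicate 3, so the lines overlapped. The difference was -0.61 ± 0.19 (SE), the signal being 1.53-fold higher in S116A, with a 95% interval from -1.05 to -0.18, and it did not pass (limma adjusted p = 0.073). It did pass without S116A replicate 3 (-0.78, limma adjusted p = 0.022) and without S116D replicate 1 (-0.79, limma adjusted p = 0.017), but without no other single array. Over all drops of 1 array the difference ran from -0.79 to -0.49, with limma adjusted p up to 0.24. Either passing drop leaves 1 line on a single side of the array division described below, across which FOXM1 also differed within both lines. FOXM1 thus differed in the direction opposite to the 5 called genes, on a single probe set that can bind other transcripts.

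Of the mitotic kinases and chromosomal passengers, none of 5 was called on its brightest probe set. PLK1, which acts at centrosomes, kinetochores and the midzone, read 10.02, 9.93 and 9.94 in S116D, against 10.14, 10.19 and 10.01 in S116A, and differed by -0.15 (limma adjusted p = 0.34). PLK4, the kinase that starts centriole duplication, differed by 0.24 (limma adjusted p = 0.31). AURKA, the centrosomal Aurora kinase, read 12.65, 12.79 and 12.93 in S116D, against 12.62, 12.48 and 12.75 in S116A, a difference of 0.17 with overlapping lines (limma adjusted p = 0.35). AURKB, the Aurora kinase of the chromosomal passenger complex, read 9.10, 9.27 and 9.31 in S116D, against 9.27, 9.26 and 9.39 in S116A, a difference of -0.08 (limma adjusted p = 0.67).

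BIRC5 encodes survivin, a passenger subunit that brings AURKB to centromeres. All 4 of its probe sets differed in the negative direction. The brightest read 12.67, 12.86 and 12.95 in S116D, against 13.09, 12.94 and 13.14 in S116A, and the difference (-0.23) did not pass (limma adjusted p = 0.14). The second read 10.99, 11.12 and 11.26 in S116D, against 11.62, 11.56 and 11.61 in S116A. There the lines stood well apart, and the difference of -0.47 ± 0.09 (SE) was called among the 54613 probe sets (limma adjusted p = 0.012), though not without S116A replicate 1 or S116D replicate 2 (up to 0.056). The remaining probe sets differed by -0.13 and -0.17.

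Over the 89 probe sets of the 44 genes, 6 were called higher and 2 lower, where 4.36% and 4.19% of all 54613 probe sets were called (8.55% in all). Arrays did not overlap for 17 with S116D above and 9 with S116D below, where the shares over all probe sets were 12.5% and 11.5% (24% in all). Besides the probe set of BIRC5, a probe set of BUB3 was lower, at 6.65, 6.52 and 6.58 in S116D, against 7.01, 6.78 and 6.85 in S116A (-0.29, limma adjusted p = 0.044, and up to 0.16 without 1 array). It was a dim probe set, below the array medians, and the other 5 probe sets of BUB3, which encodes a checkpoint protein, differed by -0.12 to 0.19 without a call. Of 23 genes with more than 1 probe set, 18 had all of them on the same side of 0.

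Of 7 genes of the spindle checkpoint and of anaphase onset PTTG1 was the only call (14.3%, beside 12.2% of all genes). The difference was above 0 for 6 of them, as it was for 10335 of 19775 genes in all, and the direction of the group was not tested. BUB1, a checkpoint kinase at kinetochores, read 10.70, 10.81 and 10.89 in S116D, against 10.56, 10.45 and 10.55 in S116A. The lines did not overlap, and the difference of 0.28 ± 0.09 (SE) narrowly missed the threshold (limma adjusted p = 0.072). TTK, the kinase that starts checkpoint signalling, read 11.37, 11.61 and 11.64 in S116D, against 11.11, 11.24 and 11.34 in S116A. S116D again lay above S116A, narrowly, with a difference of 0.31 ± 0.10 (SE, limma adjusted p = 0.093). UBE2C, the ubiquitin-conjugating enzyme of the anaphase-promoting complex, differed by 0.22 (limma adjusted p = 0.16). CDC20 read 13.08, 13.25 and 13.22 in S116D, against 13.17, 13.13 and 13.18 in S116A, a difference of 0.02 (95% interval -0.12 to 0.17). MAD2L1, the checkpoint protein that binds CDC20, was the member with a negative difference (-0.19, limma adjusted p = 0.15).

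Of 8 kinesin genes, KIF15 and KIF20A were called and 6 were not (25% called, beside 12.2% of all genes and 18.3% of those above the median signal in their own fit). Whether the group differs from other genes was not tested. KIF11, the motor that pushes spindle poles apart, read 11.69, 11.53 and 11.50 in S116D, against 11.78, 11.66 and 11.60 in S116A. Its difference of -0.10 had a 95% interval from -0.30 to 0.10, and its lines overlapped. KIF18A, which damps chromosome oscillations, differed by 0.39 (limma adjusted p = 0.16), and KIF2C, a microtubule depolymerase, by 0.22 with lines that did not overlap (limma adjusted p = 0.078). KIF23, the motor subunit of centralspindlin, differed by 0.01 (95% interval -0.15 to 0.17) on its brightest probe set. KIF4A, a chromosome-bound motor (-0.01), and KIF14, a motor of cytokinesis (-0.06), also had overlapping lines.

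None of the 5 centromere and kinetochore genes was called, and all of their differences lay between -0.10 and 0.11. CENPA, the histone variant that marks centromeres, read 9.15, 9.19 and 9.33 in S116D, against 9.33, 9.23 and 9.29 in S116A, and its difference was -0.06 (95% interval -0.24 to 0.12). The kinetochore motor CENPE differed by -0.10, the kinetochore protein CENPF by -0.08, and NDC80 and NUF2, subunits of the complex that grips microtubules, by 0.11 and -0.02.

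Of 5 spindle-binding proteins HMMR was called (20%, beside 12.2% of all genes). TPX2, the activator of AURKA on the spindle, differed by 0.08, NUSAP1 by 0.09, ASPM, which works at spindle poles, by 0.11 and DLGAP5 by 0.20, with limma adjusted p of 0.33 to 0.72. In the midzone and cytokinesis group 4 of 5 differences were negative and none was called. Differences were below 0 for 9440 of 19775 genes in all, and the direction of the group was not tested. ANLN, an actin-binding scaffold of the cleavage furrow, averaged 13.47 ± 0.08 in S116D and 13.64 ± 0.03 in S116A (SD, n = 3 each), and differed by -0.17 (limma adjusted p = 0.11). PRC1, the bundler of midzone microtubules (-0.20), CEP55, which acts in abscission (-0.16), and ECT2, the exchange factor for RhoA (-0.10), had limma adjusted p of 0.20 to 0.33. The lines did not overlap for ANLN, CEP55 and ECT2, S116D being the lower, as it was without overlap for 12.6% of all genes. RACGAP1, the partner of KIF23 in centralspindlin, differed by 0.04.

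TOP2A and MKI67, both used as proliferation markers, differed in opposite directions. TOP2A, the topoisomerase that untangles sister chromatids, read 13.28, 13.37 and 13.49 in S116D, against 13.09, 13.19 and 13.26 in S116A, a difference of 0.20 (limma adjusted p = 0.14). MKI67, which encodes the Ki-67 protein that coats mitotic chromosomes, read 10.93, 10.67 and 10.32 in S116D, against 11.31, 11.21 and 10.66 in S116A. Its difference was -0.42 ± 0.20 (SE) with a 95% interval from -0.88 to 0.04 (limma adjusted p = 0.26), and its 4 probe sets all differed in the negative direction. It passed without S116A replicate 3 (-0.62, limma adjusted p = 0.049), but without no other single array. Over all drops of 1 array the difference ran from -0.62 to -0.26, with limma adjusted p up to 0.60. Dropping S116A replicate 3 leaves S116A on a single side of the array division described below, across which MKI67 also differed within both lines. Whether the difference of TOP2A exceeded that of MKI67 was not tested.

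A few members varied widely within a line. CDC25B had a pooled within-line SD of 0.44, the largest of the 44, where the median was 0.102 over the members and 0.096 over all genes. It read 13.27, 12.57 and 12.44 in S116D and 13.12, 13.11 and 12.36 in S116A. S116D replicate 1 and S116A replicates 1 and 2 were high, and the other 3 arrays low. MKI67 (0.33), FOXM1 (0.31) and KIF18A (0.24) followed in order of this SD. CDC25B and KIF18A were singled out after their values were seen.

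The division of arrays seen in CDC25B was also found outside the mitotic genes. The second principal component over all probe sets other than those of the members held 20.3% of the variance and placed the same 3 arrays apart from S116D replicates 2 and 3 and S116A replicate 3, a division that no label describes. Within both lines 29 members were lower and 10 higher on the first 3 arrays than on the others, so 88.6% differed the same way in both lines, against 66.3% of all genes. CDC25B was higher on them by 0.77 within S116D and by 0.75 within S116A, MKI67 by 0.44 and 0.60, and FOXM1 by 0.54 and 0.50. KIF18A was lower on them, by -0.51 within S116D and -0.28 within S116A, and PLK4 by -0.36 and -0.26. Since the sets hold unequal numbers of each line, differences between the lines carry part of this division. The sets were read from these same arrays, so a block for them absorbs spread and its p-values may be too small. With the 2 sets as a block, 9 members were higher and 5 lower, beside 11.9% and 10.4% of all genes, and the 5 genes called without the block were among the 9. BUB1, TTK, KIF2C and KIF18A were the other 4, and FOXM1 (-0.44, limma adjusted p = 8.7e-04), MAD2L1, ANLN, CEP55 and BIRC5 were the 5 lower.

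**Figure D4:**
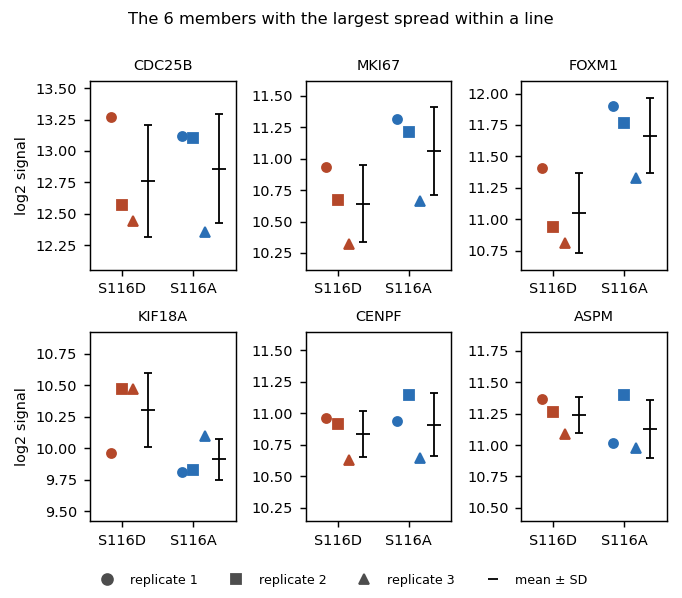
Log2 signal on each array for the 6 members with the largest pooled SD within a line. S116D stands left of S116A, symbols mark the replicate number, bars give the mean ± SD of 3 arrays, and every panel spans 1.5 log2 units; for CDC25B, MKI67 and FOXM1 replicate 1 of S116D and replicates 1 and 2 of S116A are the high arrays of their lines.

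Over all members, S116D replicate 1 was the array that stood apart most. On it 11 of 44 members lay above the mean of the line, with a median deviation of -0.07, against 29 of 44 on each of the other S116D arrays. In S116A, 29, 14 and 30 of 44 members lay above the mean of the line on replicates 1, 2 and 3. Over all genes the share above the line mean was between 45.7% and 54.1% on every array.

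Other genes of the cell cycle were taken from lists that overlap none of the 44. Of 55 other mitotic genes, 2 were higher and 1 lower, with a median of -0.004, so that 5.45% were called, beside 12.2% of all genes. All 55 lay above the median signal, where 18.3% of genes were called in their own fit. BUB1B, which encodes the checkpoint protein BUBR1, averaged 13.25 ± 0.08 in S116D and 12.68 ± 0.05 in S116A (SD, n = 3 each), and differed by 0.57 (limma adjusted p = 0.0011). KNL1, the kinetochore scaffold that recruits BUB1 and BUB1B, differed by 0.53 (limma adjusted p = 0.0042), and SPC24, of the NDC80 complex, by -0.31 (limma adjusted p = 0.049). BUB1B and KNL1 both lie on chromosome 15, where 11.1% of 612 genes were called higher and 5.07% lower. Of their 20 nearest measured genes 9 and 5 were higher and none lower, and CCDC9B, DISP2 and IVD were among those of both, since the windows overlap. NUSAP1, a member on the same chromosome, had 1 higher and 1 lower neighbour.

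Of 33 measured S-phase genes 2 were higher and 5 lower (21.2% called, beside 12.2% of all genes), with a median of -0.09. Among genes above the median signal, as all 33 were, 18.3% were called in their own fit, close to the share of this list. MCM4 (-0.46) and MCM5 (-0.40), subunits of the replicative helicase, were lower, and PRIM1, a primase subunit (0.48), and MCM10, which activates the helicase (0.57), were higher (limma adjusted p 0.0089 to 0.027). Among 20 regulators of late cell-cycle transcription 15% were called, beside 12.2% of all genes. TFDP1, the partner of E2F factors (-0.73, limma adjusted p = 0.0027), and E2F1 (-0.46, 0.036) were lower, and E2F5 (0.56, 0.040) was higher. Of 15 measured subunits and partners of the anaphase-promoting complex 13.3% were called, near the 12.2% over all genes. CDC16 was lower (-0.36, limma adjusted p = 0.013) and CDC23 higher. CDC16 and TFDP1 lie on chromosome 13, where 16% of 401 genes were called lower and 2.24% higher. None of 6 measured CDK inhibitor genes was called by limma or had an unadjusted p under 0.05 (0 of 6); the smallest p belonged to CDKN2D (-0.14, limma adjusted p = 0.44) and CDKN1A, which encodes p21 (0.09, 0.54). BUB1B, KNL1, MCM4 and TFDP1 were called without any of the 6 arrays. SPC24, MCM5, PRIM1, MCM10, E2F1, E2F5, CDC16 and CDC23 each lost their call without at least 2 of the 6. Read by the median over probe sets, TFDP1 (limma adjusted p = 0.055), SPC24 and E2F5 lost their call. CDC16 and MCM10 lost theirs in that reading and with unshared probe sets. Their differences shrank to -0.03 and 0.16 at the smallest, with limma adjusted p up to 0.88 and 0.58. BUB1B, KNL1, MCM4, MCM5, PRIM1, E2F1 and CDC23 stayed called in both readings. Whether these lists differ from the 44 mitotic genes was not tested.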

How the data were processed

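Per the labels' protocols, biotin-labelled RNA was hybridised to Affymetrix HG-U133 Plus arrays. The deposited table held log2 signals, 1 per probe set and array, taken as log2 because all lay between 4.34 and 15.33 with nearly equal quartiles. MAS5 and RMA are both named, without a role, in the submitters' processing notes. Not given in the sources used here are versions, background correction and filters, and no detection calls were used.

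Left out were 62 control probe sets. GEO's platform annotation, with symbols updated through RefSeq (GRCh38.p14), paired 41091 probe sets with 1 gene and 1801 with several, and 11721 had none. A single probe set that names CENPA beside another gene was not used. S116D was compared with S116A by limma 3.58.1 (R 4.3.3; lmFit, then eBayes with the trend on mean signal) and no covariate, once over 19775 genes by their brightest probe set and once over 54613 probe sets, each with Benjamini-Hochberg adjustment. Standard errors and 95% intervals are limma's moderated ones. The number of arrays limits the precision. With 3 arrays against 3, permutation of single values could not reach a p below 0.1, so it was not used. The fit was tested on simulated data. Python 3.11.15 with pandas 2.3.3 was used for the joins and counts.

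Over genes, the residuals of same-numbered arrays correlated at 0.53, -0.10 and 0.55, so replicate numbers were not taken as pairs. Values were given on every array for members with a called gene or probe set and for CDK1, CDC20, PLK1, AURKA, AURKB, BUB1, TTK, KIF11, CENPA, TOP2A, MKI67, BIRC5 and FOXM1. For CCNB1 and CCNA2 the mean and SD of each line were given. From each related list up to 4 called genes were named by adjusted p, or 2 where none was called. The members and lists were chosen with earlier results of these data known, and other members and neighbours were singled out after their values were seen. Settings tried besides these were quantile normalization, centring on medians, leaving out dim probe sets, eBayes with no trend, blocks for replicate number or for the array sets, weights per array, other ways of reading a gene from its probe sets, a narrower promoter window, and dropping single arrays.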

Additional observations from a re-analysis of the deposited data

How the results depend on the processing

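KIF15, KIF20A and HMMR were called under every setting tried, with limma adjusted p of at most 0.0046, 0.015 and 0.043. The count of higher members was 5 with median centring, without dim probe sets and with eBayes without trend, 6 with quantile normalization, and 4 where the median of the probe sets was taken or unshared probe sets were preferred. Of all genes tested 11.2% to 18.3% were called in these settings. Counts grew under the block and weight settings, as did the share of all genes called (18.6% to 22.3%). With replicate number as a block, 10 members were higher and 4 lower (14 and 5 probe sets). With array weights 12 were higher and 3 lower (10 and 3 probe sets), and with the array sets as a block 9 were higher and 5 lower (12 and 8 probe sets). The array sets were defined from these same arrays, so p-values in that setting may be too small. FOXM1 was among the lower ones in these 3 settings and MKI67 with the replicate block (limma adjusted p = 0.0057) and with array weights (-0.59, limma adjusted p = 0.040). Unshared probe sets gave 1 lower member, BIRC5, and eBayes without trend gave 1 lower probe set. Leaving out single arrays gave 3 to 8 higher and 0 to 2 lower members, and 3 to 8 higher and 0 to 3 lower probe sets. The 3 higher members left without S116A replicate 1, S116A replicate 2, S116D replicate 2 or S116D replicate 3 were KIF15, KIF20A and HMMR. Of all genes 7.32% to 7.89% were called in those fits, against 12.6% without S116A replicate 3 and 13.1% without S116D replicate 1. CDC25C also lost its call on the median of its probe sets (0.08, limma adjusted p = 0.63) and with unshared ones (0.08, limma adjusted p = 0.65), and PTTG1 without the trend (limma adjusted p = 0.055). The median difference over the members was 0.014 on medians of probe sets.

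Among the 44 members, direction reversed only for ones that were not called. On the median of probe sets these were AURKB (0.0054), BUB3 (-0.11) and CCNB1 (-0.0006), and with unshared probe sets CCNB1 (-0.060). With quantile normalization CCNA2 (0.036), KIF4A (0.018) and NUF2 (0.011) reversed, with array weights CCNA2 (0.028) and NUF2 (0.035), and with median centring KIF23 (-0.0057). With the array sets as a block CDC20 (-0.0076), CDC25B (0.16), CENPF (0.021), KIF23 (-0.0026), KIF4A (0.012) and RACGAP1 (-0.011) reversed. Without single arrays CCNA2 ranged from -0.054 to 0.048, CDC20 from -0.0098 to 0.073, CDC25B from -0.35 to 0.061, CENPF from -0.21 to 0.042, KIF23 from -0.013 to 0.024, KIF4A from -0.065 to 0.069 and NUF2 from -0.13 to 0.068. The causes were not tested. Chromosome 5 had 9.68% to 25.8% of its genes higher over the settings, above the share over all genes in each. The depth limit here is signal: no detection calls were used, and the called BUB3 probe set was dim.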
